A study of Mus musculus with 6 samples.

Results

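The nuclear-encoded subunits of the respiratory chain and of ATP synthase were followed in 3 mouse lines derived from melan-a cells, which are immortalized melanocytes of C57BL/6J origin. The members were all genes whose symbols begin with Ndufa, Ndufb, Ndufc, Ndufs or Ndufv, Sdha to Sdhd, and those beginning with Uqcr, Cox4 to Cox8 or Atp5, without the 8 assembly factors named Ndufaf. These were 85 of the 19505 genes named on the array, and each had 1 probe set. Complex I had 36 members, complex II 4, complex III 8, complex IV 20 and complex V 17. Ndufa4 and Ndufa4l2 were placed with complex IV, where the Ndufa4 protein is found. RNA came from mKitK641E(T), called T below, mKitK641E(PT), called PT, and mVec. T and PT carry the receptor tyrosine kinase Kit with its activating K641E substitution and are labelled as melanoma. The mVec line carries the control vector CD516B2 and is labelled as melanocytes. The titles mark the T arrays as C3# and the PT arrays as hi exp, and the sources used here do not say what T, PT and these marks mean. All lines were grown untreated in RPMI with fetal bovine serum, and each gave 2 Affymetrix Clariom S arrays. Each group is 1 line, so every error and p-value below measures only the spread between arrays of a line, which may be technical.

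Complex I takes electrons from NADH and complex II takes them from succinate, and both pass them to ubiquinone in the inner mitochondrial membrane. Complex III hands them on to cytochrome c and complex IV to oxygen, while complexes I, III and IV pump protons. Complex V, the ATP synthase, lets the protons flow back through a rotating ring of c subunits and makes ATP. Most subunits are encoded in the nucleus and some in the mitochondrial genome. In melanocytes, as in other cells, both sets are built into complexes I, III, IV and V.

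Array medians over all 22206 gene probe sets lay between 5.64 and 5.89 on the log2 scale, and between 29.0% and 32.6% of probe sets were above the background limit of their array. That limit was set at the 95th percentile over the 5222 negative controls and fell between 8.74 and 9.16. At background means here that neither array of a group exceeded its limit. The melanocyte label was not borne out by its markers at this limit: 11 of 12 were at background on all 6 arrays. Only Mitf was above the limit, on both T arrays. A value under the limit does not show absence, since subunits such as Atp5e and Uqcr11 were also at background on all 6 arrays. In each Kit line 1 of the 12 markers was called higher and 1 lower. Their differences from mVec ran from -3.43 to 1.03 in T and from -3.25 to 0.84 in PT. The log2 of the summed level of these 12 was 9.43 to 9.53 in T, 9.21 to 9.45 in PT and 9.23 to 9.27 in mVec. Kit itself was at background on all 6 arrays and gives no check of the labels. The 9 measured fibroblast markers moved with the groups. Their summed level was 12.54 to 12.72 in T, 11.87 to 12.18 in PT and 17.44 to 17.59 in mVec. Pdgfrb was above the limit in all 3 groups, Col3a1 in T and mVec, and Col1a1, Dcn, Fap and Postn in mVec alone. Col1a2 was above it on both arrays in T alone. In each Kit line 7 of the 9 were called lower than in mVec. The 1 called higher was Col1a2, by 4.16 in T and 4.15 in PT. Of 6 endothelium markers only Cdh5 was above the limit, in mVec alone, and 1 was called lower in each Kit line. Among 17 genes listed for RNA quality and handling, 4 (23.5%) were called higher and 9 (52.9%) lower than in mVec in each Kit line. Over all probe sets 16.9% were called higher and 15.5% lower in T, and 17.9% and 18.0% in PT. Fos differed from mVec by -6.49 in T and -7.14 in PT, and Atf3 by 4.45 and 4.39. The part of these shifts in the subunit results was not tested. In bulk RNA, fewer cells of a type and less RNA per cell cannot be told apart.

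Of the 85 members, 66 were above the limit on all 6 arrays, 3 (Ndufb3, Ndufb7 and Ndufb11) on some and 16 on none. The 16 included all 8 tissue-restricted isoforms of complex IV, 5 complex I subunits, Uqcr11 and the ATP synthase subunits Atp5e and Atp5k. None of the 13 mitochondrially encoded subunits is named by a probe set, so these are not analysed here. RefSeq names pseudogenes after 10 members (Ndufs5, Ndufa12, Ndufab1, Uqcrh, Cox5b, Cox7c, Atp5c1, Atp5pb, Atp5k and Atp5l), and Ndufb4 and Ndufb4b are close copies. For these genes a share of the signal from the copies cannot be told apart.

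The subunits did not move as a block in either Kit line. In T against mVec, 12 of 85 members were called higher, where 16.9% of all probe sets were, and 11 were called lower, where 15.5% were. In PT against mVec, 7 were called higher, where 17.9% of all probe sets were, and 14 lower, where 18.0% were. Calls are from limma at an adjusted p under 0.05. Of the calls, 4 in each comparison concerned members at background in both groups. The median log2 difference over the members was 0.03 in T against mVec and 0.01 in PT against mVec, beside 0.01 and 0.08 over all probe sets. The scaling of the arrays decided the sign and the balance, and the shares over all probe sets moved with it. Centring on array medians gave medians of 0.21 and 0.20, with 17 members called higher and 7 lower in T, and 11 higher and 12 lower in PT. Of all probe sets, that centring called 21.1% higher and 12.8% lower in T, and 23.9% and 15.8% in PT. Centring on bright probe sets, chosen after seeing the data, gave -0.24 and -0.23, with 5 higher and 18 lower in T, and 6 higher and 23 lower in PT. Of all probe sets, it called 13% higher and 22.4% lower in T, and 14.1% and 21.9% in PT. Among the 6898 bright probe sets, those whose mean exceeded the mean limit, the medians on the deposited scale were 0.27 and 0.24. In T, 38.0% of the bright probe sets were called higher and 22.5% lower, against 11 and 8 of the 66 members above the limit on all arrays. In PT, 38.8% were called higher and 27.2% lower, against 6 and 11 of those 66. The differences of single members ran from -1.86 to 1.83 in T and from -2.18 to 2.08 in PT. Both T arrays lay above both mVec arrays for 29 members, where 31.6% of all probe sets did, and below them for 23, where 30.0% did. Both PT arrays lay above the mVec arrays for 26 members, where 36.2% did, and below for 32, where 28.7% did. Both comparisons use the same mVec arrays. No member was called in opposite directions in the 2 Kit lines. Ndufv1, Ndufa7, Ndufb6, Uqcr10 and Atp5g1 were called higher in both, and Ndufa3, Ndufa6, Sdhc, Uqcrh, Uqcr11, Cox6a2, Cox7a2l and Atp5j lower in both.

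**Figure D1:**
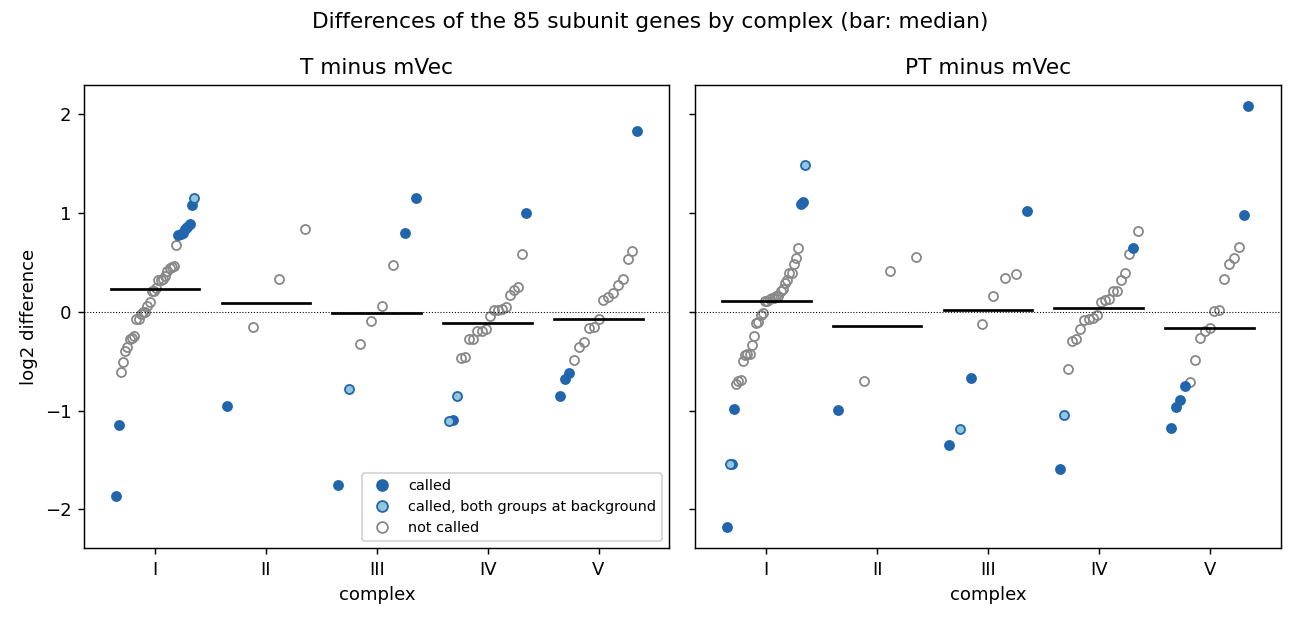
Log2 difference of each of the 85 members in T and in PT against mVec, by complex I to V. Filled points are called members, pale where both groups were at background, and bars are medians. Points lie on both sides of 0 in each complex, from -1.86 to 1.83 in T and from -2.18 to 2.08 in PT.

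The promoters of 4 members are shown because their genes carry the results that follow: the 3 genes for the c subunit of ATP synthase, which encode the same mature protein, and Ndufa6, whose fall in PT was the largest of any member. Each is 250 bases before and 50 after the start in RefSeq (GRCm38.p6), read 5′ to 3′ on the gene's minus strand. Capitals mark matches to the NRF1 motif, which is GCGCA, any base, then GCGC, or to the E-box CACGTG, read on both strands. Atp5g1 lies at chr11:96075582-96075881, Atp5g2 at chr15:102670998-102671297, Atp5g3 at chr2:73911277-73911576 and Ndufa6 at chr15:82354242-82354541.
Atp5g1: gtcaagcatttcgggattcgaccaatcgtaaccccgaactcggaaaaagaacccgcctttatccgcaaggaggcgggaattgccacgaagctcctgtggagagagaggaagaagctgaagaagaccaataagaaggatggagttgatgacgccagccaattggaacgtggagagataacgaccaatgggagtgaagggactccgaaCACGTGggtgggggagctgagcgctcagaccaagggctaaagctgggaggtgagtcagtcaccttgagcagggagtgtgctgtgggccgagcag
Atp5g2: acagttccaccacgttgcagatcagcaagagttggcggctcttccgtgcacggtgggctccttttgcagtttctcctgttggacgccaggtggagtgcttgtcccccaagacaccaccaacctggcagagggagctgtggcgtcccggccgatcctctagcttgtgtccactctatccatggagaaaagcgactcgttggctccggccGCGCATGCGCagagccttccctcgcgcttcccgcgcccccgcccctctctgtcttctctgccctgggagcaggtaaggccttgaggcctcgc
Atp5g3: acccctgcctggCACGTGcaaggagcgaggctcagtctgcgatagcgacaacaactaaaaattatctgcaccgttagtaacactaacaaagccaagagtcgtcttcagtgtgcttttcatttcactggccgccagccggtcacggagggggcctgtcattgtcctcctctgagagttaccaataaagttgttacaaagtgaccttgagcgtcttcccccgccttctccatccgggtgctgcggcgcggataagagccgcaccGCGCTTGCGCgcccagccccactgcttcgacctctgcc
Ndufa6: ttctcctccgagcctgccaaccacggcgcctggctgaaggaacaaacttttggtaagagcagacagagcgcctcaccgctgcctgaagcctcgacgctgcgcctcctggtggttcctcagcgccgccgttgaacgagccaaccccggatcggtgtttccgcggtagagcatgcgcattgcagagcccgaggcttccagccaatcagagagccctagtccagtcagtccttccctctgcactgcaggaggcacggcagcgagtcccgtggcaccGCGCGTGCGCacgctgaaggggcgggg
Atp5g1 holds an E-box 44 bases before the start and no match to the NRF1 motif. Atp5g2 and Ndufa6 each hold 1 NRF1 match, and Atp5g3 holds 1 of each. Of the 85 members, 70 had a promoter in the RefSeq table. Among these the NRF1 motif was found in 17 (24.3%), against 5.2% of the 27025 genes with a promoter. The ETS motif CCGGAAG was found in 17 (24.3%, against 9.9%) and the YY1 motif AAGATGGC in 10 (14.3%, against 3.2%). The E-box was found in 6 (8.6%, against 8.1%), which were Ndufv1, Ndufa7, Atp5pb, Atp5g1, Atp5g3 and Atp5l. No match overlapped a match to another motif. A match is a description of letters, not a site of binding. The 17 members with the NRF1 motif had median differences of 0.15 in T and -0.11 in PT against mVec, and the 53 without it 0.17 and 0.11. The 17 with the ETS motif had -0.07 and -0.07, and the 53 without it 0.21 and 0.11. For the YY1 motif the medians were 0.32 and -0.06 in the 10 members with it, and 0.14 and 0.12 in the 60 without. For the 6 members with an E-box, of which Ndufa7 was at background on all arrays, they were 0.74 and 1.04, against 0.09 and 0.00 for the 64 without. These medians were not tested.

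In complex I, 8 of 36 members (22.2%) were called higher in T than in mVec and 2 (5.56%) lower, where 16.9% of all probe sets were called higher and 15.5% lower, and 38.0% and 22.5% of the bright ones. In PT 3 (8.33%) were called higher and 4 (11.1%) lower, where 17.9% and 18.0% of all probe sets were. The medians were 0.22 in T and 0.11 in PT. Of the 6 nuclear core subunits of the matrix arm that were measured, only Ndufv1, the subunit that binds FMN and takes the electrons from NADH, was called in either line. Its log2 values were 13.60 and 13.41 on the T arrays, 13.66 and 13.85 on the PT arrays and 12.82 and 12.47 on the mVec arrays. All 4 Kit arrays were above both mVec arrays. The difference from mVec was 0.86 ± 0.22 (SE) in T, 1.82-fold (adjusted p = 0.0121 by limma), and 1.11 ± 0.22 in PT, 2.16-fold (adjusted p = 0.00249 by limma). The iron-sulfur subunits Ndufs1 (0.10 in T and 0.11 in PT) and Ndufs8 (0.33 and 0.21) and the flavoprotein subunit Ndufv2 (-0.28 and 0.29) did not pass the test.

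Ndufa6, an accessory subunit at the matrix arm that holds the acyl carrier protein, showed in PT the largest fall of any member. Its values were 10.94 and 11.48 on the T arrays, 9.95 and 10.40 on the PT arrays and 12.16 and 12.56 on the mVec arrays, so the 3 groups did not overlap. It fell by 1.15 ± 0.27 in T, 2.22-fold (adjusted p = 0.00819 by limma), and by 2.18 ± 0.27 in PT, 4.54-fold (adjusted p = 0.00012 by limma). The acyl carrier protein itself, Ndufab1, did not pass (0.32 in T and 0.14 in PT). Ndufa3, a small subunit of the membrane arm, had 11.97 and 11.96 on the T arrays, 12.19 and 12.39 on the PT arrays and 13.67 and 13.98 on the mVec arrays. Both Kit lines lay more than 1 log2 unit below mVec on every array. The fall was 3.62-fold in T (log2 difference -1.86 ± 0.21, adjusted p = 8.84e-05 by limma) and 2.90-fold in PT (-1.54 ± 0.21, adjusted p = 0.000248 by limma). Ndufa13, a membrane-arm subunit, was called lower in PT (-0.98 ± 0.27, adjusted p = 0.0173 by limma), and its T difference of -0.36 ± 0.27 did not pass (adjusted p = 0.395).

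Accessory subunits make up most of complex I. Of the 9 accessory subunits of the matrix arm, 4 (44.4%) were called higher in T and 1 (11.1%) lower. Of the 20 of the membrane arm, 3 (15.0%) were called higher and 1 (5.0%) lower. Over all probe sets 16.9% were called higher and 15.5% lower in T, and among bright ones 38.0% and 22.5%. The 4 include Ndufa7, which was at background. Ndufa9, which lies near the site where ubiquinone binds, had 12.45 and 12.91 on the T arrays, 11.70 and 12.15 on the PT arrays and 11.51 and 11.69 on the mVec arrays. Against mVec it was 2.12-fold higher in T (log2 difference 1.08 ± 0.25, adjusted p = 0.00706 by limma), while PT minus mVec was 0.32 ± 0.25 (adjusted p = 0.384). The membrane-arm subunit Ndufa11 had 10.63 and 10.59 on the T arrays, 9.91 and 10.32 on the PT arrays and 9.70 and 9.74 on the mVec arrays. It was called higher in T (0.89 ± 0.22, 1.85-fold, adjusted p = 0.0100 by limma), and its PT arrays lay between those of the other two lines. Ndufs6, Ndufa12 and Ndufs5 rose by 0.78 to 0.84 in T. Ndufb6, of the distal membrane arm, had 12.01 and 11.68 on the T arrays, 11.89 and 12.40 on the PT arrays and 10.83 and 11.28 on the mVec arrays. It rose in both lines, by 0.79 ± 0.26 in T (adjusted p = 0.0434 by limma) and by 1.09 ± 0.26 in PT (adjusted p = 0.00787 by limma). Ndufa7 was called higher in both lines and Ndufv3 lower in PT with all values at background. Ndufb9, another distal subunit, was level, with 15.82 and 15.73 on the T arrays, 15.68 and 15.67 on the PT arrays and 15.77 and 15.78 on the mVec arrays.

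Several of these calls were lost when 1 array was left out. Such a fit has 1 array in a group, which is assumed to vary like the arrays of the other groups. In T against mVec, Ndufv1 had an adjusted p of 0.0572 by limma without T replicate 1 and 0.115 without mVec replicate 2. Ndufa6 had 0.0579 and 0.0744 without the same arrays. Ndufa9 had an adjusted p of 0.0538 without T replicate 2 and 0.0557 without mVec replicate 1. For Ndufa11 it was 0.0626 and 0.0525 without mVec replicate 1 and 2, and for Ndufs6 0.0720 and 0.0609. Ndufa12 was lost without T replicate 2 (0.0554) and mVec replicate 2 (0.0849), and Ndufs5 without T replicate 1 (0.0570), T replicate 2 (0.128) and mVec replicate 1 (0.245). Ndufb6 was lost in T without either T array (0.180 and 0.0577) and mVec replicate 1 (0.281), and in PT without PT replicate 2 (0.0718) and mVec replicate 1 (0.0790). Ndufa13 was lost in PT without PT replicate 1 (0.143) and mVec replicate 2 (0.127). When arrays were centred on bright probe sets instead, a choice made after seeing the data, Ndufv1 (adjusted p = 0.0624), Ndufs6 (0.0709), Ndufa12 (0.0573), Ndufs5 (0.119) and Ndufb6 (0.157) lost their T calls, and with quantile normalization Ndufb6 did (0.106). The calls of Ndufa3 in both lines and of Ndufv1 and Ndufa6 in PT held in every alternative run.

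**Figure D2:**
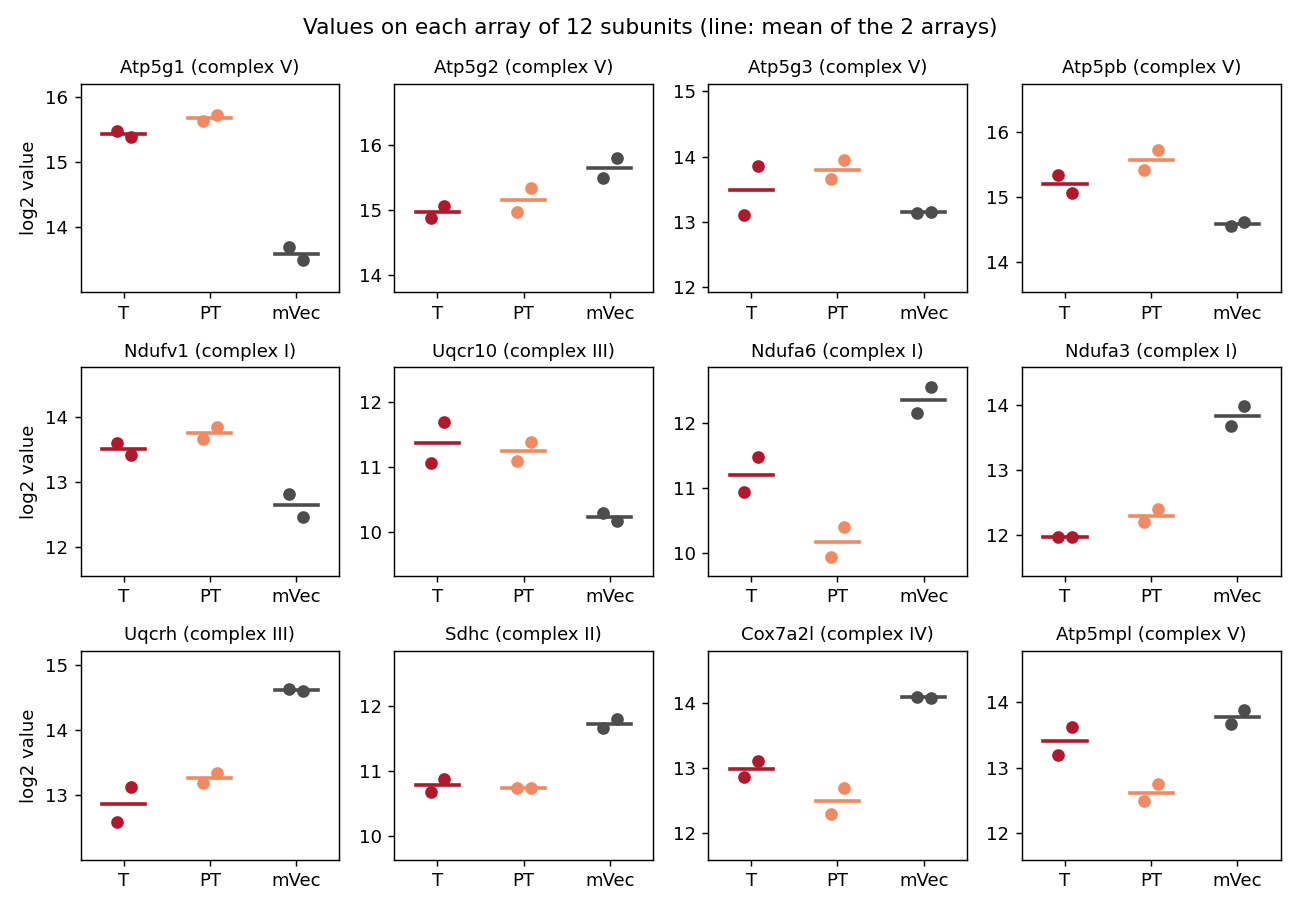
Log2 value on each array, T and PT left of mVec, for the 3 c-subunit genes and 9 other members with large called changes, each panel spanning the same range. Points are single arrays and lines are means of the 2 arrays, and Atp5g1 lies at 15.38 to 15.72 on the 4 Kit arrays and at 13.49 to 13.70 on the mVec arrays.

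Complex II, succinate dehydrogenase, is also an enzyme of the tricarboxylic acid cycle. Of its 4 subunits 1 was called lower in each Kit line and 0 higher. Over all probe sets 15.5% were called lower in T and 18.0% in PT, and 16.9% and 17.9% higher. Among bright probe sets 22.5% and 27.2% were called lower, and 38.0% and 38.8% higher. The 1 called was Sdhc, which anchors the enzyme in the membrane together with Sdhd. Sdhc had 10.68 and 10.87 on the T arrays, 10.73 and 10.74 on the PT arrays and 11.65 and 11.79 on the mVec arrays, so both Kit lines lay below mVec without overlap. It fell 1.93-fold in T (log2 difference -0.95 ± 0.20, adjusted p = 0.00469 by limma) and 1.98-fold in PT (-0.99 ± 0.20, adjusted p = 0.00323 by limma), in every alternative run. Its partner Sdhd had 12.48 and 13.32 on the T arrays, 12.53 and 12.68 on the PT arrays and 11.84 and 12.28 on the mVec arrays. Here the Kit arrays were the higher ones, and the differences of 0.84 ± 0.29 in T (adjusted p = 0.0556 by limma) and 0.55 ± 0.29 in PT (adjusted p = 0.200) did not pass. The catalytic subunits Sdha, which binds FAD, and Sdhb, which holds the iron-sulfur clusters, did not pass in either line. Sdha differed from mVec by -0.16 in T and -0.70 in PT, and Sdhb by 0.33 and 0.41.

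Among the complex III members taken by symbol, the calls fell on the small subunits. Cytochrome c1 of this complex, Cyc1, lies outside the symbol patterns and was called higher in both lines. Its PT call did not hold in every alternative run, and its values are given below with the further subunits and carriers. The core proteins Uqcrc1 and Uqcrc2 and the Rieske iron-sulfur protein Uqcrfs1 differed from mVec by -0.12 to 0.47 and did not pass. Uqcrh, the hinge protein beside cytochrome c1, had 12.59 and 13.13 on the T arrays, 13.19 and 13.34 on the PT arrays and 14.63 and 14.60 on the mVec arrays. It fell 3.37-fold in T (log2 difference -1.75 ± 0.23, adjusted p = 0.000247 by limma) and 2.54-fold in PT (-1.35 ± 0.23, adjusted p = 0.00113 by limma). Uqcr10, another small subunit near cytochrome c1, went the other way, with 11.06 and 11.69 on the T arrays, 11.10 and 11.39 on the PT arrays and 10.29 and 10.17 on the mVec arrays. It was 2.21-fold higher in T (1.15 ± 0.25, adjusted p = 0.00591 by limma) and 2.03-fold higher in PT (1.02 ± 0.25, adjusted p = 0.00988 by limma). The ubiquinone-binding protein Uqcrq was called higher in T (0.80 ± 0.23, adjusted p = 0.0214 by limma), and PT did not pass (0.16). Uqcrb, which also lies by the ubiquinone site, had 16.31 and 16.53 on the T arrays, 16.19 and 15.98 on the PT arrays and 16.77 and 16.73 on the mVec arrays. It was called lower in PT (-0.67 ± 0.21, adjusted p = 0.0293 by limma, against -0.33 in T). Uqcr11 was called lower in both lines at background. The Uqcrh calls and the T call of Uqcr10 held in every alternative run. The PT call of Uqcr11 held in every run that tested it, and the run on probe sets above background left it out. The T call of Uqcr11 was lost without mVec replicate 1 (adjusted p = 0.0543 by limma) or mVec replicate 2 (0.0884) and with quantile normalization (0.0739). Other calls lost when single arrays were left out were Uqcr10 in PT without PT replicate 2 (adjusted p = 0.0750) and mVec replicate 2 (0.0631), Uqcrq without T replicate 2 (0.123) and mVec replicate 1 (0.168), and Uqcrb without PT replicate 1 (0.0539), PT replicate 2 (0.140), mVec replicate 1 (0.136) or mVec replicate 2 (0.111). Uqcrq also lost its call with quantile normalization (0.0695) and with centring on bright probe sets (0.0975), and Uqcrb with centring on array medians (0.101).

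Of the 11 widely used subunits of complex IV, 1 (9.09%) was called higher in T and 1 in PT, where 16.9% and 17.9% of all probe sets were, and 0 were called lower, where 15.5% and 18.0% were. At an unadjusted p under 0.05 by limma, Cox7c was lower in T and Cox6c in PT. The medians were 0.02 in T and -0.03 in PT. Cox4i1, the widely used form of subunit IV, differed from mVec by 0.02 in T and 0.12 in PT, and Cox6b1, which lies where the monomers of the enzyme meet, by 0.02 and -0.07. Cox7c, a small membrane subunit, had 16.25 and 16.40 on the T arrays, 16.80 and 16.65 on the PT arrays and 16.79 and 16.77 on the mVec arrays, and did not pass. Cox5a, which faces the matrix, had 12.60 and 13.09 on the T arrays, 12.30 and 13.02 on the PT arrays and 11.56 and 12.12 on the mVec arrays. All 4 Kit arrays were above the mVec arrays, and the difference passed in T (1.0 ± 0.31, adjusted p = 0.0317 by limma) and not in PT (0.82 ± 0.31, adjusted p = 0.0674). Cox7b, a membrane subunit, was called higher in PT (0.64 ± 0.20, adjusted p = 0.0338 by limma) and not in T (0.58 ± 0.20, adjusted p = 0.0575). The T call of Cox5a was lost without T replicate 2 (0.192) or mVec replicate 1 (0.220), and the PT call of Cox7b without any 1 of the PT and mVec arrays (0.0557 to 0.181). Both were also lost with quantile normalization (0.0757 for Cox5a and 0.104 for Cox7b) and with centring on bright probe sets (0.0870 and 0.170).

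Cox7a2l, a relative of Cox7a known in mice for joining complexes III and IV into supercomplexes, had the largest called change among complex IV members above background. Its values were 12.86 and 13.10 on the T arrays, 12.29 and 12.69 on the PT arrays and 14.09 and 14.08 on the mVec arrays. Every Kit array was below both mVec arrays, and the fall was 2.15-fold in T (log2 difference -1.10 ± 0.22, adjusted p = 0.00341 by limma) and 3.02-fold in PT (-1.59 ± 0.22, adjusted p = 0.000272 by limma). Both calls held in every alternative run. The tissue-restricted isoforms were at background on all 6 arrays: Cox6a2, Cox7a1 and Cox8b, known from heart and skeletal muscle, Cox6b2, Cox7b2 and Cox8c, known from testis, and Cox4i2 and Ndufa4l2, known as forms raised in low oxygen. Cox4i2 had 4.17 and 4.33 on the T arrays, 4.87 and 4.45 on the PT arrays and 4.06 and 4.84 on the mVec arrays, and Ndufa4l2 had 3.34 and 3.54 on the T arrays, 3.17 and 3.19 on the PT arrays and 3.38 and 3.59 on the mVec arrays. Cox6a2 was called lower in both Kit lines and Cox7b2 in T, with all their values under the limit, so no fold is given.

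In complex V the 3 c-subunit genes differed among themselves. Atp5g1 had 15.47 and 15.38 on the T arrays, 15.63 and 15.72 on the PT arrays and 13.70 and 13.49 on the mVec arrays. The Kit arrays stood well apart from the mVec arrays, and Atp5g1 was 3.55-fold higher in T (log2 difference 1.83 ± 0.20, adjusted p = 7.13e-05 by limma) and 4.22-fold higher in PT (2.08 ± 0.20, adjusted p = 2.21e-05 by limma). Both were the largest rises among the 85 members in the fit as described, and both calls held in every alternative run. Atp5g2 had 14.88 and 15.07 on the T arrays, 14.98 and 15.34 on the PT arrays and 15.49 and 15.81 on the mVec arrays, and was lower in T (-0.68 ± 0.23, adjusted p = 0.0468 by limma) while PT did not pass (-0.49 ± 0.23, adjusted p = 0.135). Atp5g3 had 13.10 and 13.86 on the T arrays, 13.66 and 13.94 on the PT arrays and 13.14 and 13.15 on the mVec arrays. It did not pass in T (0.33 ± 0.27, adjusted p = 0.424 by limma) or PT (0.65 ± 0.27, adjusted p = 0.0944). Levels of the 3 genes come from different probes and are not set against each other.

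The F1 head, which makes the ATP, and the central stalk together had 0 of 5 members called in T and 1 (20.0%) called lower in PT. Atp5e, among these 5, was at background on all 6 arrays. Over all probe sets 16.9% were called higher and 15.5% lower in T, and 17.9% and 18.0% in PT. The alpha subunit of the head, Atp5a1, was the 1 called lower in PT (-0.89 ± 0.20, 1.85-fold, adjusted p = 0.00641 by limma). It had 16.20 and 16.29 on the T arrays, 15.38 and 15.64 on the PT arrays and 16.36 and 16.45 on the mVec arrays. The catalytic beta subunit Atp5b had 16.54 and 16.35 on the T arrays, 16.15 and 16.34 on the PT arrays and 15.80 and 16.04 on the mVec arrays, and did not pass (0.53 ± 0.21 in T and 0.33 ± 0.21 in PT). In the peripheral stalk, which holds the head still, subunit b (Atp5pb) was called higher in PT and another stalk subunit, Atp5j, lower in both lines. Atp5pb had 15.33 and 15.06 on the T arrays, 15.41 and 15.72 on the PT arrays and 14.56 and 14.62 on the mVec arrays. It rose by 0.98 ± 0.22 in PT (1.97-fold, adjusted p = 0.00501 by limma), and the T difference of 0.61 ± 0.22 did not pass (adjusted p = 0.0589). Atp5j had 12.45 and 12.84 on the T arrays, 12.40 and 12.67 on the PT arrays and 13.27 and 13.72 on the mVec arrays, and fell by 0.85 ± 0.25 in T (adjusted p = 0.0236 by limma) and by 0.96 ± 0.25 in PT (adjusted p = 0.0114 by limma).

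Of the 5 small subunits in the membrane part, 1 was called lower in T and 2 in PT, and 0 were called higher. Over all probe sets 15.5% were called lower in T and 18.0% in PT, and among bright ones 22.5% and 27.2%. The shares called higher over all probe sets were 16.9% and 17.9%. Atp5k, among these 5, was at background on all 6 arrays. Atp5mpl, a short subunit next to the c ring, had 13.20 and 13.63 on the T arrays, 12.48 and 12.74 on the PT arrays and 13.67 and 13.89 on the mVec arrays. It fell 2.26-fold in PT (log2 difference -1.18 ± 0.23, adjusted p = 0.00250 by limma), and T did not pass (-0.36 ± 0.23, adjusted p = 0.292). Subunit f, Atp5j2, was called lower in T (-0.62 ± 0.20, adjusted p = 0.0448 by limma) and subunit g, Atp5l, which shapes dimers of the enzyme, in PT (-0.75 ± 0.24, adjusted p = 0.0328 by limma). The PT calls of Atp5pb and Atp5mpl held in every alternative run. Atp5g2 and Atp5j2 in T lost their calls without any 1 of the 6 arrays (adjusted p from 0.0510 to 0.274 and from 0.0532 to 0.195) and with centring on array medians (0.145 and 0.163). Atp5l in PT was lost without any 1 of the 4 PT and mVec arrays (0.0526 to 0.209) and with the same centring (0.0957). Atp5a1 was lost without PT replicate 1 (0.0506) or mVec replicate 2 (0.0514). Atp5j was lost in T without T replicate 1 (0.122) or mVec replicate 2 (0.189) and with centring on array medians (0.0671), and in PT without PT replicate 1 (0.0839) or mVec replicate 2 (0.109).

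Between the Kit lines, 5 of 85 members were called higher in T than in PT, where 5.67% of all probe sets were, and 0 lower, where 2.70% were. All 5 were complex I accessory subunits, out of 36 members of that complex. Among the 66 members above the limit on all arrays, 3 were called higher and 0 lower, where 10.7% and 5.54% of the bright probe sets were. Both T arrays lay above both PT arrays for 26 members, where 23.8% of all probe sets did, and below for 21, where 26.3% did. At an unadjusted p under 0.05, 15 members were higher in T and 6 lower. The median difference over complex I was 0.20, over all 85 members 0.09 and over all probe sets -0.04. Ndufs6, a zinc-binding subunit of the matrix arm, had 12.48 and 12.54 in T and 11.60 and 11.63 in PT. The T arrays were higher by 0.90 ± 0.20, 1.86-fold (adjusted p = 0.0231 by limma), and the mVec arrays, at 11.71 and 11.74, were close to PT. Ndufc2, of the membrane arm, had 14.66 and 14.91 in T and 13.86 and 13.88 in PT, a difference of 0.92 ± 0.20, 1.89-fold (adjusted p = 0.0252 by limma), with mVec between them at 14.42 and 14.32. Ndufa6 differed by 1.03 ± 0.27, 2.04-fold (adjusted p = 0.0473 by limma). Ndufb7, also of the membrane arm, had 8.14 and 8.80 in T and 7.15 and 7.58 in PT (adjusted p = 0.0349 by limma) and was above the limit on 1 T array only, and Ndufv3 was at background in both lines (adjusted p = 0.0360).

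None of these 5 calls held in every alternative run. Without T replicate 2, PT replicate 1 or PT replicate 2, 0 of the 85 members were called higher in T than in PT. The difference of Ndufs6 stayed between 0.85 and 0.92 over all alternatives, with an adjusted p of 0.0523 by limma without T replicate 1, 0.0978 without T replicate 2, 0.119 without PT replicate 1 and 0.0876 without PT replicate 2. Ndufc2 lost its call without any 1 of 5 arrays, all but T replicate 1 (0.0505 to 0.126), and in the fit of the 2 groups alone (0.0505), with differences from 0.80 to 1.04 over all alternatives. Ndufa6 lost its call without the same 5 arrays (0.0653 to 0.272), and also with centring on array medians (0.0507), quantile normalization (0.0629), array weights (0.0657) and the fit of the 2 groups alone (0.0653). With only the 4 T and PT arrays in the fit 1 member was called. When the test was run over probe sets above background or above the median mean, 8 members were called higher. The share of all tested probe sets called in these runs was not computed.

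**Figure D3:**
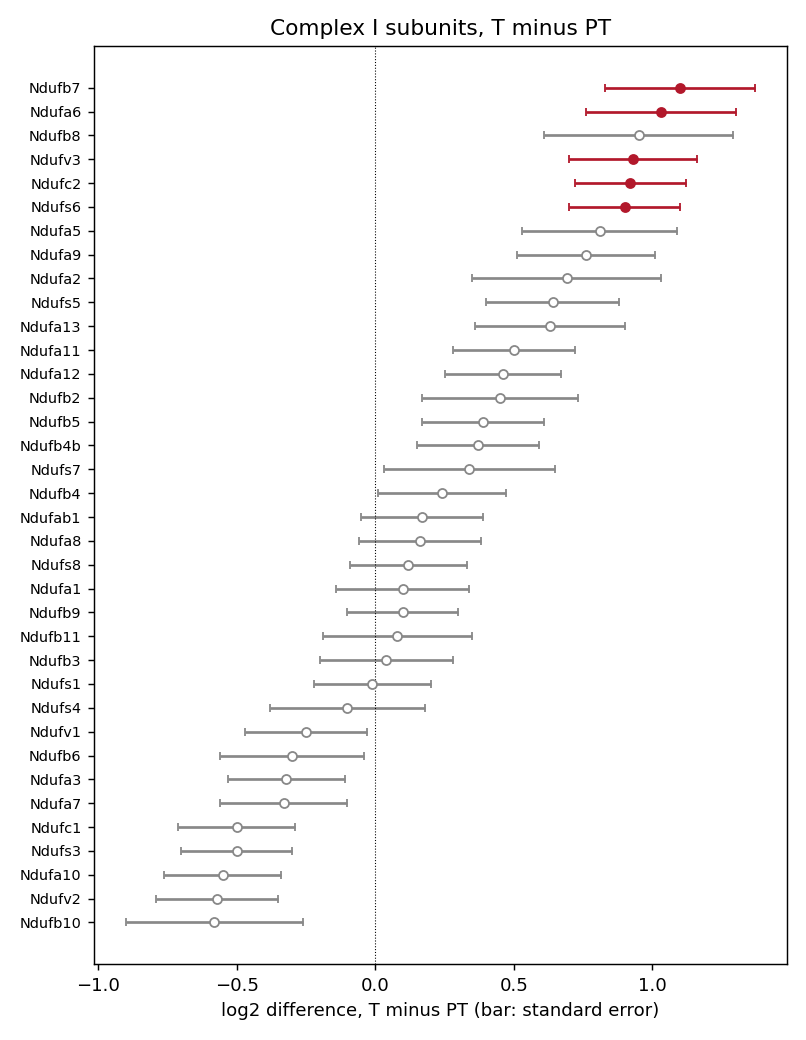
Log2 difference of T minus PT for each of the 36 complex I members, with the standard error of the limma fit. The called members lie between 0.90 and 1.10, and the median of the complex is 0.20.

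The 2 arrays of a group differed over the members. In T, 66 of 85 members were higher on the array titled replicate 2 (median 0.25 on the log2 scale), in PT 76 (median 0.29) and in mVec 58 (median 0.10). Over all probe sets the shares were 52.8%, 48.1% and 51.8%, and among bright probe sets 55%, 60.1% and 46.9%. The medians over bright probe sets were 0.04 in T, 0.08 in PT and -0.02 in mVec. The shift between the arrays of PT is larger than the median difference between any pair of groups.

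**Figure D4:**
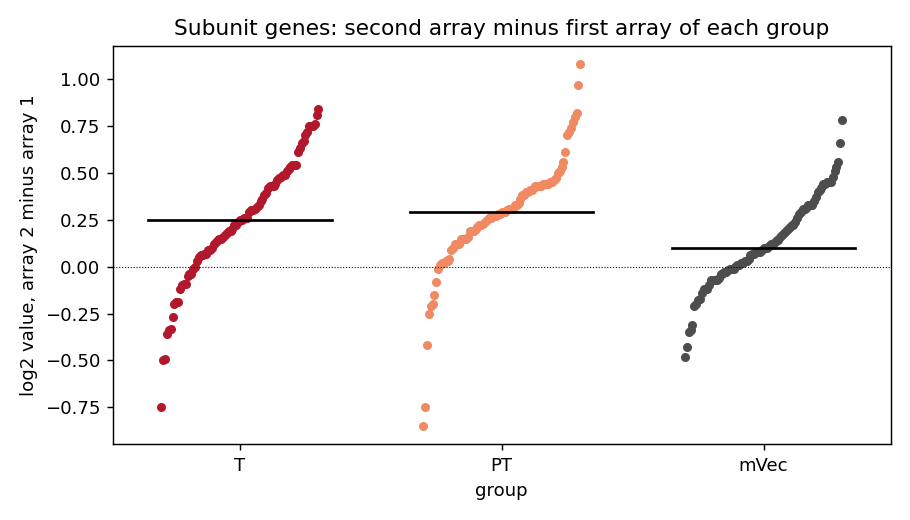
Log2 value of the second minus the first array for each of the 85 members in T, PT and mVec, sorted within the group, with the median as a line. Most points lie above 0, with medians of 0.25, 0.29 and 0.10.

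Assembly factors build the complexes and are not part of them. Of 45 measured, 17 (37.8%) were called higher and 6 (13.3%) lower in T than in mVec, and 18 higher and 7 (15.6%) lower in PT. Over all probe sets 16.9% were called higher and 15.5% lower in T, and 17.9% and 18.0% in PT, while among bright probe sets 38.0% and 38.8% were called higher, close to the shares of the assembly factors. In T 5 and in PT 7 of these calls were at background in both groups. Cox20, a chaperone of a mitochondrially encoded complex IV subunit, had 10.40 and 10.10 on the T arrays, 9.71 and 9.61 on the PT arrays and 13.61 and 13.57 on the mVec arrays. Its fall was 10.1-fold in T (log2 difference -3.34 ± 0.21, adjusted p = 1.73e-06 by limma) and 15.2-fold in PT (-3.93 ± 0.21, adjusted p = 4.52e-07 by limma). Ndufaf4, a complex I assembly factor, had 13.50 and 13.35 on the T arrays, 13.69 and 13.52 on the PT arrays and 11.21 and 11.22 on the mVec arrays, and was 4.63-fold and 5.26-fold higher in T and in PT (adjusted p = 1.99e-05 and 8.26e-06 by limma). Foxred1, Sco1 and Uqcc1 were at background in mVec, so their folds are lower bounds against the limit: the complex I factor Foxred1 was at least 2.16-fold higher in T and at least 1.42-fold in PT, the copper chaperone Sco1 at least 1.62-fold and 1.15-fold, and the complex III factor Uqcc1 at least 2.40-fold and 3.58-fold. Their adjusted p by limma ran from 1.42e-05 to 0.000134 in T and from 1.80e-05 to 4.54e-05 in PT.

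Of 18 regulators of mitochondrial gene expression measured, 12 (66.7%) were called higher and 1 lower in T than in mVec, where 16.9% of all probe sets and 38.0% of the bright ones were higher. In PT 13 (72.2%) were called higher and 1 lower, where 17.9% and 38.8% were higher. Over all probe sets 15.5% were called lower in T and 18.0% in PT. The median differences were 1.38 in T and 1.25 in PT, and 5 of the calls in each comparison were at background in both groups. Nrf1, a transcription factor of respiratory genes, had 11.35 and 11.40 on the T arrays, 12.70 and 12.98 on the PT arrays and 9.77 and 9.68 on the mVec arrays, and the groups did not overlap. It was 3.13-fold higher in T and 8.63-fold higher in PT than in mVec (adjusted p = 0.000162 and 1.77e-06 by limma), and T minus PT was -1.46 ± 0.21 (adjusted p = 0.00388). Lrpprc, which stabilizes mitochondrial mRNAs, had 12.28 and 12.48 on the T arrays, 12.44 and 12.84 on the PT arrays and 9.81 and 9.91 on the mVec arrays, a rise of 5.75-fold in T and 6.87-fold in PT (adjusted p = 1.56e-05 and 5.64e-06 by limma). Tfam, which packs and transcribes mitochondrial DNA, rose 5.03-fold in T and 3.72-fold in PT (adjusted p = 2.48e-05 and 7.55e-05 by limma), and Myc 4.35-fold and 5.52-fold (adjusted p = 3.64e-05 and 9.53e-06). Gabpb1, a subunit of the ETS factor GABP, rose 2.71-fold and 5.40-fold (adjusted p = 0.000553 and 1.22e-05 by limma). The coactivator Ppargc1a was called lower in both lines with all values at background.

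Of 10 further subunits and carriers measured outside the symbol patterns, 5 were called higher and 0 lower in T than in mVec, with 6 higher and 0 lower at an unadjusted p under 0.05. In PT 4 were called higher and 2 (20.0%) lower. Over all probe sets 16.9% were called higher in T and 17.9% in PT, and among bright ones 38.0% and 38.8%. The shares called lower were 15.5% and 18.0% over all probe sets, and 22.5% and 27.2% among bright ones. Cycs, the cytochrome c that links complexes III and IV, had 15.71 and 15.62 on the T arrays, 15.72 and 15.80 on the PT arrays and 13.94 and 14.01 on the mVec arrays, and rose 3.22-fold and 3.45-fold (adjusted p = 0.000103 and 5.32e-05 by limma). Cyc1, the cytochrome c1 of complex III, rose 2.88-fold in T (adjusted p = 0.00176 by limma) and 2.03-fold in PT (adjusted p = 0.0154), and the PT call was lost without PT replicate 2 (0.125) or mVec replicate 2 (0.110). The ADP/ATP carrier Slc25a5 rose 2.72-fold in T and 2.22-fold in PT (adjusted p = 0.000585 and 0.00214 by limma). Its muscle-type counterpart Slc25a4 was called lower in PT (-0.82 ± 0.20, adjusted p = 0.00918 by limma), a call lost without PT replicate 1 (0.0586), mVec replicate 1 (0.0546) or mVec replicate 2 (0.0572).

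**Figure D5:**
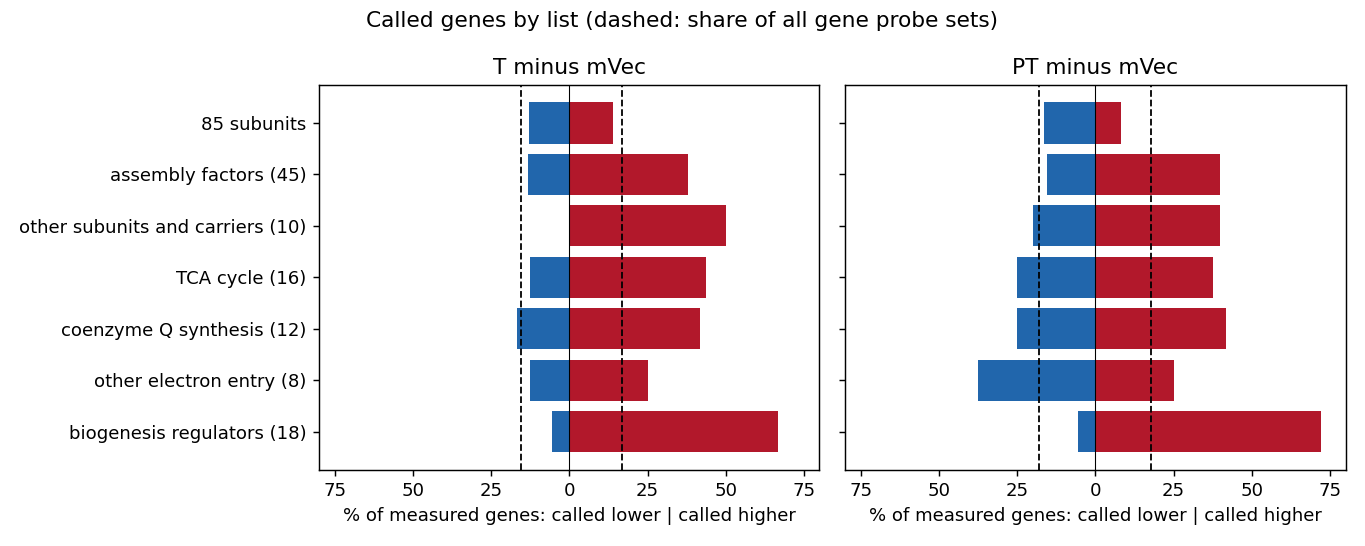
Share of the measured genes of each list called higher (right) and lower (left) in T and in PT against mVec, in percent, with the number measured in brackets and dashed lines at the shares over all probe sets. The subunits lie at 14.1% higher in T and 8.24% in PT, below the dashed lines at 16.9% and 17.9%.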

How the data were processed

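The authors deposited a log2 value for each probe set on each array, read as log2 from its range. The sources used here do not give the software, background correction, normalization or genome build behind it. Per the labels' protocols, total RNA was isolated with RNeasy columns, labelled with biotin and hybridized to Affymetrix Clariom S arrays. Of 28846 rows, 22206 gene probe sets were tested and 6640 controls left out. Symbols come from the platform annotation, and the gene IDs of all 85 members were found in RefSeq under the same symbols.

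The deposited values were fitted with limma 3.58.1 (R 4.3.3, statmod 1.5.0), all 6 arrays in 1 model with a mean for each of 3 groups (3 residual and 6.36 prior degrees of freedom). P-values are two-sided and adjusted by Benjamini-Hochberg over all gene probe sets within each of the 3 comparisons. A member was called at an adjusted p under 0.05, and errors are standard errors of the fit. Where both groups were at background no fold is given, and where 1 was, the fold is a lower bound. The fit was tested on simulated data.

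The members, lists, rules and tests were chosen with earlier results of these data known. Named with values are, per complex and comparison, up to 4 called members with the largest difference above background, the brightest member, the c-subunit genes and the tissue-restricted isoforms, and up to 3 called genes of each list and comparison. The remaining called members, partner subunits and Ppargc1a are named for a full account, after their values were seen. Alternatives were other scalings, variance models, filters, 2 groups only, a replicate block and leaving out each array. The number of arrays limits the precision.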

Additional observations from a re-analysis of the deposited data

How the results depend on the processing

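Over the 49 calls of members, no alternative reversed a direction. Of 23 calls in T against mVec, 7 held in every alternative that tested them (Ndufa3, Ndufa7, Sdhc, Uqcrh, Uqcr10, Cox7a2l and Atp5g1). The same was so for 12 of 21 in PT against mVec and 0 of 5 in T against PT. The run on probe sets above background tested only 39 of the 49 calls. It left out Ndufa7 in both lines and Ndufv3 and Uqcr11 in PT, which were at background on all 6 arrays. Centring on array medians gave 17 members higher and 7 lower in T against mVec and 11 higher in PT, with medians over the members of 0.21 and 0.20, and moved the medians over all probe sets to 0.20 and 0.27. Centring on bright probe sets gave 5 higher and 18 lower in T and 23 lower in PT, with medians of -0.24 and -0.23, and medians over all probe sets of -0.26 and -0.15. Over all probe sets the share of calls that were higher was 52.3% in T against mVec as deposited, 62.3% with median centring and 36.7% with bright centring, and in PT 49.9%, 60.3% and 39.1%. Differences are therefore relative to the deposited scale.

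With a trend in the variance prior, 12 members were higher in PT than in mVec and 2 lower in T than in PT. Testing only probe sets above background gave 8 higher and 1 lower in T against PT, testing those above the median mean 8 higher, and using only the 2 groups 1 higher. Shares over all tested probe sets were not computed for the runs of this paragraph or for the replicate block. Leaving out 1 array gave 5 to 12 higher and 5 to 9 lower in T against mVec, 5 to 8 higher and 8 to 17 lower in PT against mVec, and 0 to 4 higher in T against PT. The medians then ran from -0.05 to 0.14, from -0.09 to 0.09 and from -0.07 to 0.25. The causes were not tested. Each member has 1 probe set, so averaging probe sets changes nothing.

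The titles share replicate numbers 1 and 2 across groups. Deviations from the group means correlated at 0.082, 0.043 and 0.040 over all probe sets and at 0.341, 0.146 and 0.093 over the members, from 2 numbers only, and the labels give no pairing. With the replicate number as a block, all 49 calls stayed, with 13 members higher and 11 lower in T against mVec, 8 and 16 in PT against mVec, and 6 and 0 in T against PT.

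Among the other lists, the regulators had 8 to 13 called higher in T and 9 to 14 in PT over the alternatives that kept all arrays, and the assembly factors 13 to 18 and 12 to 22. The filter on background, which left fewer genes to test, gave the lowest of these counts except that of the assembly factors in T, where centring on bright probe sets did.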

Other observations

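For the lists that follow, the shares over all probe sets were 16.9% called higher and 15.5% lower in T against mVec, and 17.9% and 18.0% in PT against mVec. Among bright probe sets they were 38.0% and 22.5% in T, and 38.8% and 27.2% in PT. The 16 genes listed for the tricarboxylic acid cycle include Idh1 and Mdh1, whose enzymes are cytosolic, and the NADP-dependent Idh2. Of the 16, 7 (43.8%) were called higher and 2 (12.5%) lower in T than in mVec. In PT 6 (37.5%) were called higher and 4 lower, and the higher shares in both lines were near those of bright probe sets. The 2 called lower in T were Idh1 and Idh2, and the 4 in PT were these with Mdh1 and Suclg2. Idh3a, the catalytic subunit of the NAD-dependent isocitrate dehydrogenase, had 14.90 and 14.84 on the T arrays, 15.02 and 15.09 on the PT arrays and 13.04 and 13.01 on the mVec arrays, and rose 3.58-fold in T and 4.08-fold in PT (adjusted p = 5.5e-05 and 2.07e-05 by limma). Dld, the lipoamide dehydrogenase shared by the 2-oxoacid dehydrogenases, rose 3.23-fold and 3.05-fold (adjusted p = 0.000124 and 0.000138 by limma). The NADP-dependent enzymes fell. Idh2, in mitochondria, was 3.07-fold lower in T and 3.41-fold lower in PT (adjusted p = 0.000497 and 0.00022 by limma). Idh1, in the cytosol, had 10.60 and 10.45 on the T arrays, 8.39 and 8.12 on the PT arrays and 12.21 and 11.75 on the mVec arrays. It was 2.74-fold lower in T (adjusted p = 0.000807 by limma) and at least 7.82-fold lower in PT, where it was at background (adjusted p = 1.2e-06), and T exceeded PT at least 2.86-fold (adjusted p = 0.00108). The calls of Idh3a, Dld, Idh2 and Idh1 held in every alternative run.

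Of 12 genes of coenzyme Q synthesis, 5 (41.7%) were called higher and 2 (16.7%) lower in T, and 5 (41.7%) higher and 3 lower in PT, with 2 and 4 of these calls at background in both groups. Coq10b, a coenzyme Q binding protein, rose 3.70-fold in T and 3.54-fold in PT (adjusted p = 5.2e-05 and 4.92e-05 by limma). Coq4, at background in mVec, was at least 1.27-fold higher in T and at least 1.51-fold higher in PT (adjusted p = 2.9e-05 and 1.15e-05 by limma). Of 8 genes that bring electrons to ubiquinone by other routes or serve complex I import, 2 were called higher and 1 (12.5%) lower in T, and 2 higher and 3 (37.5%) lower in PT, with 1 call in each at background. Aifm1, which helps import complex I subunits, rose 2.17-fold and 2.33-fold (adjusted p = 0.00144 and 0.00068 by limma). Etfdh and Etfa, which pass electrons from fatty acid oxidation, were called lower in PT (-0.93 ± 0.20 and -0.90 ± 0.20, adjusted p = 0.00387 and 0.00455 by limma) and were 0.28 and -0.13 in T, where they did not pass. Of 8 genes for uncoupling and alternative factors, 2 were called higher and 1 (12.5%) lower in T, and 1 (12.5%) higher and 2 lower in PT, with 1 call in each at background. Higd1a, a factor of complex IV known from low oxygen, had 10.33 and 10.97 on the T arrays, 10.20 and 10.80 on the PT arrays and 8.43 and 8.63 on the mVec arrays. Against the mVec limit its rise was at least 3.13-fold in T and 2.82-fold in PT (adjusted p = 0.000259 and 0.000344 by limma). Its relative Higd2a was lower in T and in PT (-0.87 ± 0.22 and -1.41 ± 0.22, adjusted p = 0.0107 and 0.000492 by limma), and the T call was lost without mVec replicate 2 (adjusted p = 0.0737).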
